A study of Mus musculus with 12 samples.

Results

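The genes described here are 35 genes of brown fat heat production and fatty acid oxidation, measured in the thoracic aorta of ApoE-/- mice. They were chosen by symbol, from a list of 35 names, among the 25284 genes in the table of counts. All 35 were found, 34 of them under the listed symbol and Gyk under its present symbol Gk. The mice of both groups were male, lacked apolipoprotein E, ate a high fat diet enriched in cholesterol and were 18 weeks old at the end. The 6 control mice (C1 to C6) received vehicle from minipumps under the skin, and the other 6 mice (A1 to A6) received AZ6983, an agonist of the α7 nicotinic acetylcholine receptor, for 8 weeks at a daily dose of 50 µmol per kg. Each library is the stranded total RNA of a single aorta, and whether the fat around the vessel was kept or trimmed is not given in the sources used here.

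Brown adipocytes burn fatty acids to make heat. Uncoupling protein 1 (Ucp1) lets protons leak back across the inner mitochondrial membrane, so that respiration runs without making ATP. Fatty acids enter the mitochondrion as carnitine esters and are then shortened by the acyl-CoA dehydrogenases and the trifunctional protein. The fat that surrounds the thoracic aorta of mice is known to be of the brown type.

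The libraries held 23810036 to 35864666 counts on genes. Levels are given as counts per 1000000 counts (CPM) after scaling by the TMM method of edgeR. Mouse A5 stood apart in library composition: its 10 most abundant genes took 30.2% of its counts, against 16.0% to 22.1% in the other 11 mice, and its TMM factor was 0.837, against 0.987 to 1.07 in the others. Reads on no gene made up 8.02% to 12.7% of the table's reads in controls and 11.2% to 14.9% in AZ6983 mice. A5 was singled out with earlier results of these data known, so the p-values without it describe the other 11 mice and are no independent evidence.

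Some markers of brown fat were abundant in every aorta and others were low. Ucp1 alone took 0.193% to 0.299% of the counts on genes in controls and 0.132% to 0.312% in AZ6983 mice. Cidea, a lipid droplet protein of brown adipocytes and no member of the list, lay between 394 and 653 CPM in controls and between 424 and 952 CPM in AZ6983 mice. Lep, the leptin gene of white fat, lay between 4.79 and 57.5 CPM in controls, with the highest value in C6, and between 3.21 and 9.84 CPM in AZ6983 mice. Retn, another white fat marker, lay between 15.6 and 53.1 CPM in controls and between 24.4 and 50.4 CPM in AZ6983 mice. Of the other brown adipocyte markers, Slc36a2 lay between 116 and 176 CPM in controls and between 134 and 276 CPM in AZ6983 mice. Cox8b and Elovl3 are described below. Lhx8 lay between 0.408 and 0.909 CPM in controls and between 0.392 and 1.04 CPM in AZ6983 mice, and Eva1a between 2.91 and 5.40 CPM and between 2.73 and 4.23 CPM. Zic1, a patterning factor and also such a marker, had 0 to 3 counts per mouse. It was the 1 member removed by the filter on low counts, so 34 members were tested. In whole tissue, fewer brown adipocytes and less RNA of these genes per cell cannot be told apart.

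Over all 12 mice, no member passed the threshold between AZ6983 and control mice. Of the 34 members tested, 25 had a negative and 9 a positive log2 fold change, with a median of −0.17, against 0.0090 for the 15857 genes tested. In edgeR's quasi-likelihood test with Benjamini-Hochberg adjustment over all genes, 0 members passed 10% FDR, as did 0.0% of all genes, and adjusted p-values of the members ran from 0.447 to 0.963. At an unadjusted p under 0.05, 2 members were lower (Elovl3 and Bmp8b) and 1 was higher (Ebf2), where 2.81% of all genes were lower and 7.38% higher at that level. The alternatives that kept all 12 mice also called 0 members, although DESeq2 on every gene called 92 genes in all (0.364%) and limma-voom with sample weights 4.

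For most members, A5 was the AZ6983 mouse with the highest level. This mouse had the highest level of the 12 for 27 of the 34 members (79.4%), against 18.5% of all genes tested. The other 5 AZ6983 mice lay lower: the median log2 deviation of the members from their control median was 0.55 in A5, −0.19 in A6 and between −0.67 and −0.39 in A1 to A4. Among controls, C6 had the lowest level for 27 members, with a median deviation of −0.45, while the other 5 controls lay between −0.03 and 0.12. The map of log2 deviations shows the same 2 mice against the rest.

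**Figure D1:**
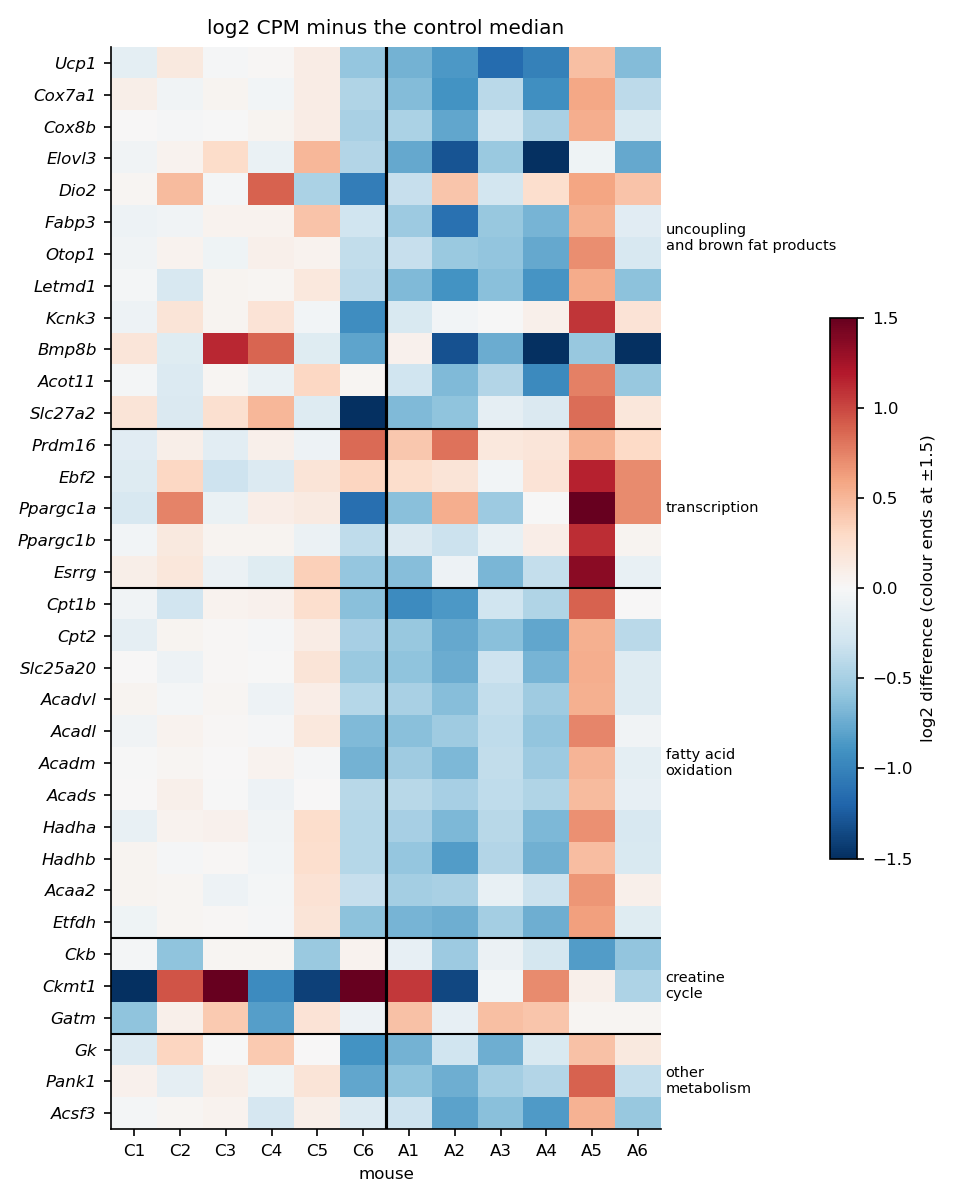
Difference of each mouse's log2 CPM from the median of the 6 control mice, for the 34 members tested (rows, by role) in the 12 mice (columns), with blue for lower, red for higher and the colour ending at ±1.5. Column A5 is red and columns A1 to A4 and C6 are blue through most of the uncoupling and fatty acid oxidation rows.

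Without A5, 28 of the 34 members had a negative log2 fold change and the median was −0.42, against −0.0068 over the 16011 genes then tested. Of these members, 3 fell at 10% FDR (Ucp1, Letmd1 and Acsf3), where 0.137% of all genes did so. At an unadjusted p under 0.05, 20 of the 34 members were lower, against 6.95% of all genes, and 0 were higher. The number of calls depended on single mice: with C6 left out as well, 19 members passed, as did 4.1% of all genes (650, against 27 with C6 kept), and with any of C1, C3, C4, C5, A2, A3 or A4 left out as well, 0 members and 0 to 6 genes did. With the fraction of reads outside genes as a covariate 0 members passed, and that fraction was higher at the median in AZ6983 mice (12.4% against 10.1%).

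**Figure D2:**
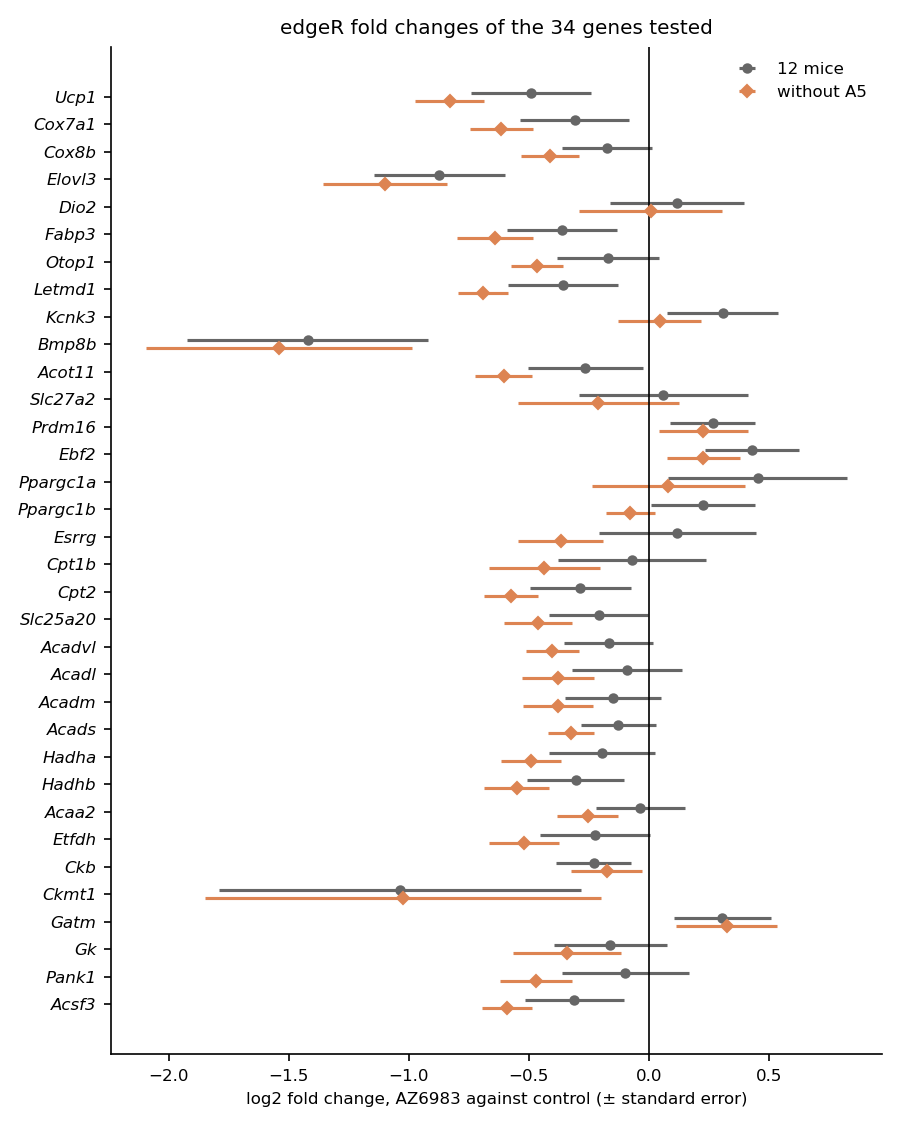
Log2 fold change of AZ6983 against control mice with its standard error from edgeR, for the 34 members tested, with all 12 mice (circles) and without A5 (diamonds). All 11 genes of fatty acid oxidation shift to the left without A5, whereas Dio2, Kcnk3 and the transcription factors Prdm16, Ebf2, Ppargc1a and Ppargc1b stay near 0 or above it. Esrrg, of the same group as these factors, moves from 0.12 over 12 mice to −0.37 without A5.

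Ucp1 (ENSMUSG00000031710.4, chr8:83290352-83298452, plus strand, GRCm38) had the highest level per length of all members, at 1606 ± 267 CPM per kb of exon (SD, n = 6 controls). Its level was 1834 CPM in the lowest control, 2736 at the median and 3034 in the highest, and 1228, 1585 and 3728 CPM in AZ6983 mice. All AZ6983 mice other than A5 lay below the lowest control, C6, and A5 lay above the highest, so that the groups overlapped through A5 alone. Over 12 mice Ucp1 had a log2 fold change of −0.49 (SE 0.251, adjusted p = 0.518), and the difference of mean log2 CPM was −0.58 (exact permutation test over 924 assignments, two-sided, p = 0.0541). Without A5 the log2 fold change was −0.83 (SE 0.142, adjusted p = 0.0675), which is 0.562-fold, and the exact permutation p was 0.00433, where the smallest possible is 0.00216. The adjusted p without A5 ranged from 0.0114 without C6 to 0.214 without C5 when 1 further mouse was left out.

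Without A5, 5 members had all AZ6983 mice below all controls, namely Ucp1, Elovl3, Letmd1, Acot11 and Acsf3, where 0.681% of all genes tested did so. With all 12 mice, 0 members had groups that did not overlap, against 0.41% of all genes.

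**Figure D3:**
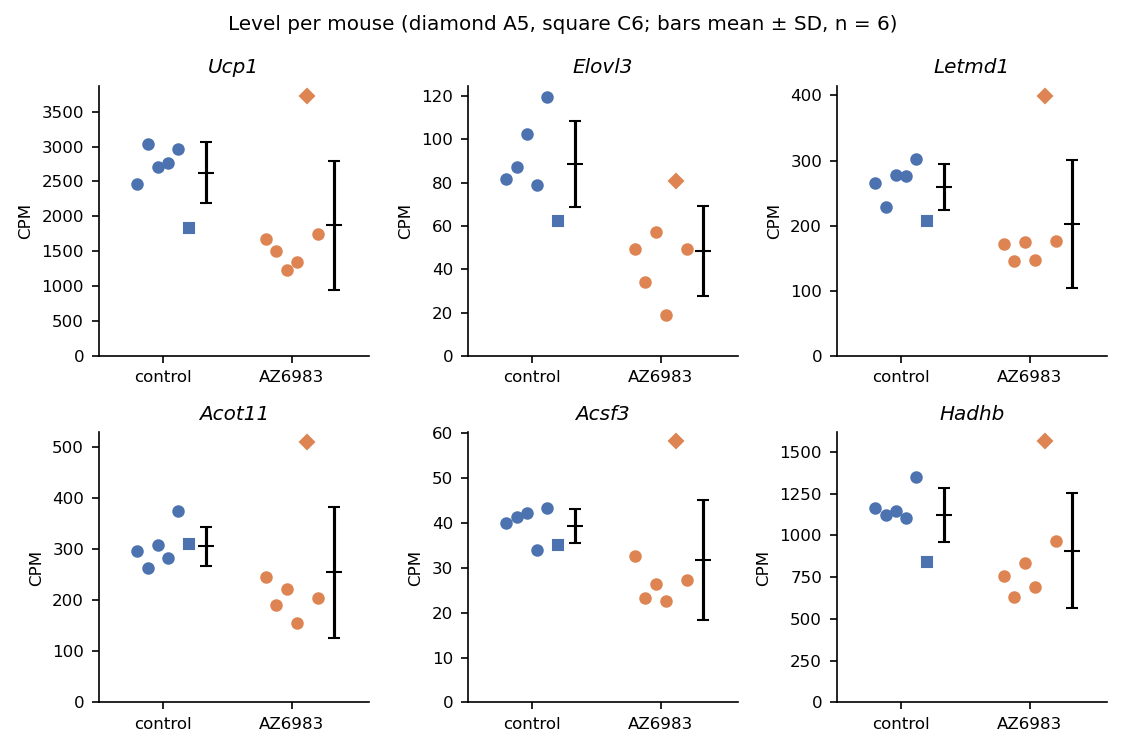
Level in CPM (linear axis from 0) of Ucp1, Elovl3, Letmd1, Acot11, Acsf3 and Hadhb in each of the 6 control and 6 AZ6983 mice, with A5 as a diamond, C6 as a square and bars for the mean ± SD. The diamond lies above every other mouse in all panels but that of Elovl3, where it lies within the control range of 62.2 to 119.7 CPM.

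Elovl3, an elongase of long-chain fatty acids that brown fat makes in the cold, had the smallest p of the members over all mice. It stood at 62.2, 84.5 and 119.7 CPM (lowest, median, highest) in controls and at 19.1, 49.6 and 80.9 CPM in AZ6983 mice. A5 was again the highest AZ6983 mouse but remained within the control range, and A4 was the lowest. Elovl3 had a log2 fold change of −0.87 (SE 0.274, unadjusted p = 0.0072, adjusted p = 0.447) over 12 mice and −1.10 (SE 0.257, adjusted p = 0.173) without A5.

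Letmd1, a protein of the inner mitochondrial membrane needed for brown fat heat production (ENSMUSG00000037353.9, chr15:100469023-100479164, plus strand), stood at 207, 271 and 302 CPM in controls and at 145, 174 and 399.8 CPM in AZ6983 mice. The AZ6983 mice other than A5 reached 176 CPM at most, below every control. For Letmd1 this gave a log2 fold change of −0.36 (SE 0.229, adjusted p = 0.577) over 12 mice and −0.69 (SE 0.106, adjusted p = 0.0604) without A5.

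Acot11, a thioesterase that releases fatty acids from coenzyme A, stood at 263, 303 and 375 CPM in controls and at 156, 214 and 510.0 CPM in AZ6983 mice. Here C2 and not C6 was the lowest control. Its log2 fold change was −0.26 (adjusted p = 0.688) over 12 mice and −0.61 (SE 0.120, adjusted p = 0.122) without A5.

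The respiratory chain subunits Cox7a1 and Cox8b and the fatty acid binding protein Fabp3 overlapped between groups even without A5. Cox7a1 stood at 124 to 184 CPM in controls and 90.2 to 253 CPM in AZ6983 mice, and Fabp3 at 121 to 199 CPM and 68.5 to 216 CPM. Without A5 their log2 fold changes were −0.62 and −0.64 (adjusted p = 0.148 and 0.188). Cox8b had the second highest level per length in controls, at 855 CPM per kb, and stood at 227 to 343 CPM in controls and 186 to 462 CPM in AZ6983 mice. Otop1, a proton channel, stood at 89.1 to 121 CPM in controls and 67.9 to 187 CPM in AZ6983 mice, and its log2 fold change was −0.17 over 12 mice and −0.47 without A5 (adjusted p = 0.782 and 0.173). Fabp3 overlaps Zcchc17 on the other strand, and whether the counting used strand is not given in the sources used here.

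Bmp8b, a secreted growth factor that raises the response of brown fat to noradrenaline, had the most negative log2 fold change but only 2 to 43 counts per mouse. It stood at 0.340, 0.643 and 1.48 CPM in controls and at 0.0532, 0.284 and 0.668 CPM in AZ6983 mice. C3 and C4 were the highest mice, A4 and A6 were the lowest, and the groups overlapped. For Bmp8b it was −1.42 on the log2 scale (SE 0.502, unadjusted p = 0.0142, adjusted p = 0.45) over 12 mice and −1.54 (SE 0.554, adjusted p = 0.316) without A5. Bmp8b overlaps Ppie on the other strand. Other members also overlap a protein-coding gene on the other strand: Elovl3 (Pitx3), Acot11 (Fam151a), Acadvl (Dvl2), Etfdh (4930579G24Rik) and Ckmt1 (Strc).

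For Dio2, Kcnk3 and Slc27a2, no AZ6983 mouse lay below the lowest control. Dio2, the deiodinase that makes active thyroid hormone in brown fat, stood at 109 to 416 CPM in controls and 178 to 338 CPM in AZ6983 mice, all within the control range. Kcnk3, a potassium channel, stood at 38.0 to 83.8 CPM in controls and 61.8 to 153 CPM in AZ6983 mice. Slc27a2, a fatty acid transporter, stood at 18.0 to 102 CPM in controls and 45.5 to 128 CPM in AZ6983 mice, with A1 to A4 below the control median of 72.6 CPM. C6 was the lowest of the 12 mice for all 3 genes.

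The 11 genes of fatty acid oxidation lay on 1 side of their control medians within each of A1 to A5 and C6, and on both sides in the other mice. All 11 had a negative log2 fold change over 12 mice, from −0.30 to −0.04 with a median of −0.17, and 0 passed 10% FDR. Without A5 all 11 were again negative, from −0.58 to −0.25 with a median of −0.44. Of these, 9 had an unadjusted p under 0.05 and 0 passed 10% FDR, with adjusted p from 0.116 to 0.443. In A5 all 11 were above the control median, and in each of A1, A2, A3, A4 and C6 all 11 were below it. In A6, 9 were below and 2 above, and C1 to C5 were split as well, most evenly C1 with 6 below and 5 above.

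Cpt2, the inner membrane enzyme that hands fatty acids from carnitine back to coenzyme A, came closest to the threshold without A5. It stood at 153, 217 and 235 CPM in controls and at 127, 144 and 315 CPM in AZ6983 mice. A1 to A4 lay below the lowest control, A6 lay at 165 CPM within the control range, and A5 lay above all controls. The log2 fold change was −0.29 (SE 0.211, adjusted p = 0.617) over 12 mice and −0.58 (SE 0.112, adjusted p = 0.116) without A5.

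Hadha and Hadhb encode the subunits of the trifunctional protein, which carries out the last steps of each round of oxidation of long chains. Hadhb stood at 841, 1135 and 1352 CPM in controls and at 634, 796 and 1565 CPM in AZ6983 mice. As for Cpt2, A1 to A4 lay below C6, A6 lay among the controls and A5 lay above them. The log2 fold change of Hadhb was −0.30 (SE 0.202, adjusted p = 0.586) over 12 mice and −0.55 (SE 0.135, adjusted p = 0.179) without A5. Hadha stood at 751 to 1208 CPM in controls and 632 to 1630.0 CPM in AZ6983 mice, and without A5 its log2 fold change was −0.49 (adjusted p = 0.201).

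Acaa2, the thiolase that closes each round, had the highest level per length of the oxidation genes, at 468 ± 58.4 CPM per kb (SD, n = 6 controls), and the smallest differences. It stood at 565, 718 and 835 CPM in controls and at 505, 620 and 1137 CPM in AZ6983 mice. Its log2 fold change was −0.04 (SE 0.185, adjusted p = 0.959) over 12 mice and −0.25 (SE 0.127, adjusted p = 0.42) without A5. Among the dehydrogenases, which take chains from very long to short, Acadvl stood at 782 to 1125 CPM, Acadl at 478 to 840.4 CPM, Acadm at 609 to 1035 CPM and Acads at 127 to 178 CPM in controls. In AZ6983 mice they stood at 676 to 1527 CPM, 489 to 1254 CPM, 624 to 1418 CPM and 119.9 to 235 CPM, with A5 the highest mouse for each. The carrier Slc25a20 and the electron transfer enzyme Etfdh also had their highest level in A5, at 183 to 307 CPM and 319 to 561 CPM in controls and 160.0 to 392 CPM and 293 to 751 CPM in AZ6983 mice. Cpt1b, the muscle and brown fat form of the entry enzyme, was low, at 0.986 to 1.87 CPM in controls and 0.780 to 2.94 CPM in AZ6983 mice.

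The transcription factors and coactivators had fold changes of the other sign over 12 mice. All 5 that were tested had a positive log2 fold change, from 0.12 to 0.45, and without A5 3 were positive and 2 negative, with 0 of 5 passing 10% FDR in either fit. Ppargc1a, the coactivator that drives mitochondrial genes in the cold, had the highest level per length of this group, at 6.07 ± 2.38 CPM per kb (SD, n = 6 controls). It stood at 18.0, 39.6 and 66.0 CPM in controls and at 25.5, 48.4 and 115 CPM in AZ6983 mice, with C6 the lowest of all mice and A5 the highest. Ppargc1a had a log2 fold change of 0.45 (SE 0.372, adjusted p = 0.657) over 12 mice and 0.08 (SE 0.319, adjusted p = 0.931) without A5.

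Ebf2, a factor that commits precursor cells to the brown fate, was the member with the smallest p among those higher in AZ6983 mice. It stood at 25.7, 32.0 and 39.7 CPM in controls and at 30.9, 37.4 and 70.6 CPM in AZ6983 mice, where A5 and A6 exceeded every control. The log2 fold change was 0.43 (SE 0.196, unadjusted p = 0.0483, adjusted p = 0.487) over 12 mice and 0.23 (SE 0.151, adjusted p = 0.533) without A5. Prdm16, a coregulator that holds the brown fate, stood at 42.6, 47.9 and 86.3 CPM in controls and at 53.4, 61.0 and 84.3 CPM in AZ6983 mice. For Prdm16 the highest mouse was C6, which was the lowest control for 27 of the 34 members. Its log2 fold change was 0.27 (SE 0.176, adjusted p = 0.585) over 12 mice. Ppargc1b and Esrrg stood at 15.3 to 22.1 CPM and 5.75 to 11.1 CPM in controls and at 15.9 to 42.9 CPM and 5.33 to 22.2 CPM in AZ6983 mice, with A5 the highest mouse for both.

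The creatine cycle, a second way in which thermogenic fat can spend energy, is represented by 3 members, of which 0 passed in either fit. Ckb, the brain-type creatine kinase, had the highest level per length of them, at 35.9 ± 7.19 CPM per kb (SD, n = 6 controls). It stood at 76.2, 116 and 120.0 CPM in controls and at 64.7, 87.5 and 109 CPM in AZ6983 mice, and A5 was the lowest mouse of all, the reverse of its place for Ucp1. The log2 fold change of Ckb was −0.23 (SE 0.156, adjusted p = 0.591) over 12 mice. Gatm, which makes the creatine precursor, stood at 4.39 to 10.4 CPM in controls and 7.23 to 10.8 CPM in AZ6983 mice, for a log2 fold change of 0.31 (SE 0.202, adjusted p = 0.585). Ckmt1, the mitochondrial kinase, had 6 to 162 counts per mouse and stood at 0.209 to 5.59 CPM in controls and 0.288 to 1.86 CPM in AZ6983 mice, for a log2 fold change of −1.04 (SE 0.755, adjusted p = 0.612).

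Of the 3 other metabolic members, Acsf3 fell without A5. Acsf3 (ENSMUSG00000015016.8, chr8:122775486-122817880, plus strand), a mitochondrial enzyme that activates malonate, stood at 34.004, 40.6 and 43.3 CPM in controls and at 22.6, 26.8 and 58.2 CPM in AZ6983 mice. All AZ6983 mice other than A5 reached at most 32.7 CPM, below the lowest control, C4. Acsf3 had a log2 fold change of −0.31 (SE 0.204, adjusted p = 0.585) over 12 mice and −0.59 (SE 0.103, adjusted p = 0.0723) without A5. Gk, the glycerol kinase, was the highest per length of the 3, at 29.9 ± 8.42 CPM per kb (SD, n = 6 controls), and stood at 125, 233 and 305 CPM in controls and at 139.7, 194 and 315 CPM in AZ6983 mice. Its log2 fold change was −0.16 (SE 0.235, adjusted p = 0.819). Pank1, a kinase of coenzyme A synthesis, stood at 74.5 to 146 CPM in controls and 77.4 to 237 CPM in AZ6983 mice.

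Set against Adipoq, the adiponectin gene that white and brown adipocytes share, Ucp1 was lower in AZ6983 mice also with A5 included. The ratio of Ucp1 to Adipoq was 7.05, 8.14 and 9.23 (lowest, median, highest) in controls and 3.10, 3.85 and 7.34 in AZ6983 mice. A5 fell within the control range at 7.34, and the other AZ6983 mice lay below every control, with A1 the nearest at 5.73. C6, the control with the lowest Ucp1 level, had a ratio of 8.69 and did not stand apart. The log2 ratio was 3.02 ± 0.153 in controls and 2.11 ± 0.486 in AZ6983 mice (SD, n = 6 each), a difference of −0.91 (exact permutation test, two-sided, p = 0.00433), and the difference was −1.06 without A5 (exact permutation p = 0.00216, the smallest possible).

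Adipoq itself stood at 211 to 430.0 CPM in controls and 291 to 508 CPM in AZ6983 mice (log2 fold change 0.32, adjusted p = 0.523), so most genes had a lower ratio to it. Over all genes tested, 89.5% had a lower mean log2 ratio to Adipoq in AZ6983 mice, with a median difference of −0.32, and of the 34 members 31 did, with a median of −0.55. At least 5 AZ6983 mice lay below every control for 10 members, against 1.81% of all genes. Elovl3 was the member for which all 6 did, against 0.139% of all genes. Against Plin1, the coat protein of lipid droplets, the difference for Ucp1 was −0.60 (exact permutation p = 0.00433), and against Myh11, the smooth muscle myosin of the vessel wall, it was −0.56 (exact permutation p = 0.13). Against the mean of 8 adipocyte genes, a reference chosen after seeing the data, it was −0.64, and all 6 AZ6983 mice including A5 lay below all controls (exact permutation p = 0.00216). Cidea in place of Ucp1 gave −0.40 against Adipoq (exact permutation p = 0.0346), −0.10 against Plin1 (p = 0.513), −0.05 against Myh11 (p = 0.883) and −0.14 against the mean of the adipocyte genes (p = 0.184), so its difference met 0.05 with Adipoq alone as the reference.

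**Figure D4:**
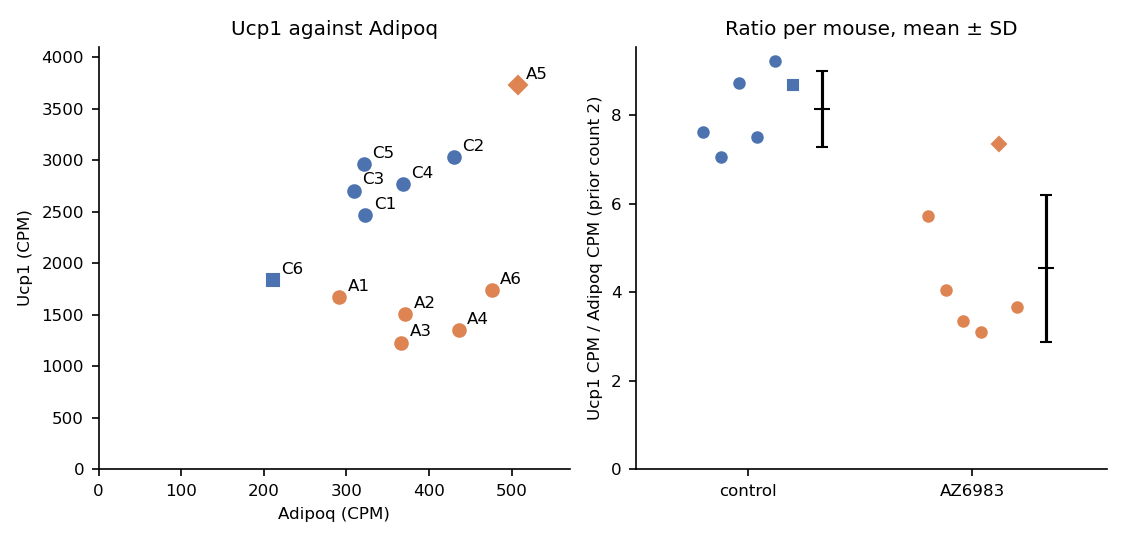
Left, Ucp1 against Adipoq in CPM, with each point a mouse (blue control, orange AZ6983). Right, the ratio of both per mouse by group, with mean ± SD (n = 6 each), A5 as a diamond and C6 as a square. A5 lies among the controls in the ratio, at 7.34 against 7.05 to 9.23, and the other AZ6983 mice lie below them.

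The members were also compared by how closely their log2 CPM followed that of Ucp1 from mouse to mouse. Values of a mouse share 1 library and 1 scaling factor, and the 2 groups differ in Ucp1, so r is given within groups as well. Over 12 mice the median Pearson r of the 33 members with Ucp1 was 0.828, against −0.113 over the 15856 other genes tested. Of the 33, 20 passed 10% FDR with a positive r (permutation test with 100000 draws, adjusted over all genes), against 4.7% of all genes. With Spearman's rho 9 passed. This count rests in part on A5: without it 2 members passed, although the median r was 0.796. Without A3 and A5, which lie farthest from the median Ucp1 level, 10 passed and the median r was 0.822. The median r was 0.845 within the 6 controls and 0.885 within the 6 AZ6983 mice. Within a group no member could be expected to pass, since the smallest exact p over 6 mice is 0.00139 before adjustment over 15856 genes.

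Cpt2 followed Ucp1 most closely of the members and ranked 3 among all genes, with r = 0.964 and rho = 0.958 (permutation p = 2e-05 for both, adjusted p = 0.00857 and 0.0198). Its r was 0.985 without A3 and A5, 0.981 within controls and 0.963 within AZ6983 mice. Otop1 came next, with r = 0.939 and rho = 0.937 (permutation p = 2e-05 and 5e-05, adjusted p = 0.00857 and 0.0198), and 0.957 without A3 and A5. Letmd1 had r = 0.921, Acsf3 0.913 and Hadha 0.912 (permutation p = 8e-05, 3e-05 and 3e-05, adjusted p = 0.0143, 0.00971 and 0.00971). Their rho was 0.874, 0.902 and 0.874 (permutation p = 0.00031, 0.00019 and 0.00045, adjusted p = 0.0493, 0.0424 and 0.0605), and their r without A3 and A5 was 0.933, 0.891 and 0.953. Within controls r was lower for Letmd1 (0.655, exact permutation p = 0.147) and Acsf3 (0.559, exact permutation p = 0.24) than for Hadha (0.921, exact permutation p = 0.0139), and within AZ6983 mice it was 0.936, 0.94 and 0.933 for Letmd1, Acsf3 and Hadha.

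The members that followed Ucp1 least were Gatm (r = −0.366), Prdm16 (−0.339), Ckb (−0.296), Ckmt1 (−0.0462) and Ebf2 (0.173), with rho of −0.392, −0.294, −0.287, −0.021 and 0.161 and permutation p from 0.245 to 0.885 for r (adjusted p from 0.594 to 0.964). For Ppargc1a and Kcnk3 the pooled r of 0.500 and 0.475 was lower than r within either group, which was 0.953 and 0.938 in controls and 0.802 and 0.898 in AZ6983 mice. The same held for Adipoq, whose r was 0.903 in controls, 0.529 in AZ6983 mice and 0.144 over all mice. These differences in r were not tested.

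**Figure D5:**
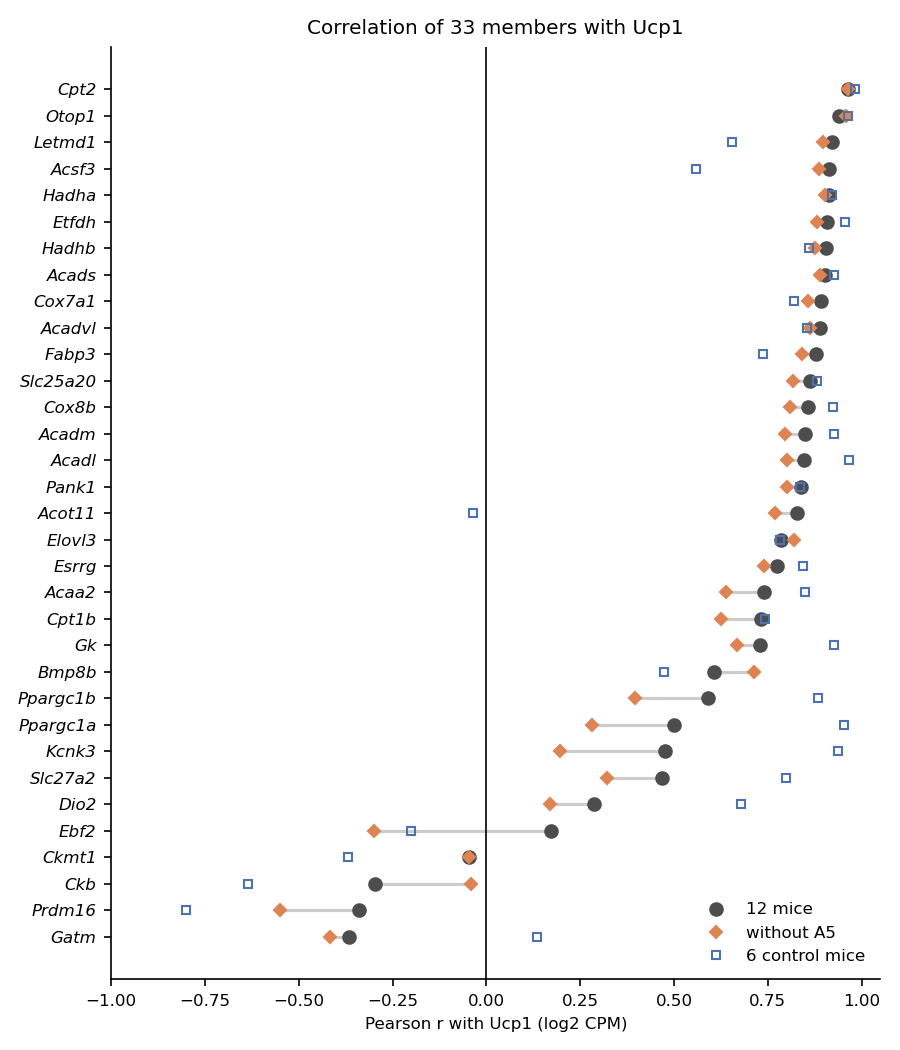
Pearson r with Ucp1 (log2 CPM) of the 33 other members tested, over 12 mice (circles), without A5 (diamonds) and within the 6 control mice (open squares). Cpt2 and Otop1 lie at 0.964 and 0.939 over 12 mice and the genes of fatty acid oxidation lie above 0.7, whereas Ckb, Prdm16 and Gatm lie below 0.

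The promoters of the 3 members called without A5 are shown. The sequences are RefSeq's for GRCm38.p6, from 250 bases before to 50 bases after the start site, 5′ to 3′ on the strand of the gene. Capitals mark AGGTCA, the core motif of many nuclear receptors, and TGACG, the core of the cyclic AMP response element, searched on both strands.
Ucp1 (chr8:83290098-83290397, plus strand): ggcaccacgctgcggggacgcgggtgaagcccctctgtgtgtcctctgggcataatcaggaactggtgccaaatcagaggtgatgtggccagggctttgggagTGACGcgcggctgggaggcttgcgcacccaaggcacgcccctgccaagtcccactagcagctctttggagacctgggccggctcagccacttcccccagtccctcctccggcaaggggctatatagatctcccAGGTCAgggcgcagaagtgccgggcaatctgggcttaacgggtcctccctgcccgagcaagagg
Letmd1 (chr15:100468761-100469060, plus strand): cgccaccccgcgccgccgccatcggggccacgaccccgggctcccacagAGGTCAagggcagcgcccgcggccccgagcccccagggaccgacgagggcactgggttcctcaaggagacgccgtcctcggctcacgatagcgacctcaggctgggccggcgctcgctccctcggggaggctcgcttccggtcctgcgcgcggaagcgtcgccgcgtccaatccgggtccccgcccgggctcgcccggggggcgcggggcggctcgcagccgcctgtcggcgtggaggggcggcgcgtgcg
Acsf3 (chr8:122775236-122775535, plus strand): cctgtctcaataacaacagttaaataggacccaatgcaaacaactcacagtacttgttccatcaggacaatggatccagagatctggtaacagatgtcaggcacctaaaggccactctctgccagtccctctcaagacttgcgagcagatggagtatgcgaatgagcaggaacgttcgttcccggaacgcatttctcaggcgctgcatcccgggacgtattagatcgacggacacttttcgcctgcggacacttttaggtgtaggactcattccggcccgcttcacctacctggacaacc
The Ucp1 window held AGGTCA from position −14 and TGACG from position −147 before the start site, the Letmd1 window held AGGTCA from position −201, and the Acsf3 window held neither. Of all 32851 promoters in the table, 16.3% held AGGTCA and 20.8% held TGACG. The 35 promoters of the 29 members with an entry held them in 7 cases each. AAGGTCA, which contains AGGTCA, was in 3 member promoters and 4.72% of all, TGACGTCA, which contains TGACG, in 1 and 1.79%, and TATAAA in 6 and 13.6%. The windows of Cpt2, Otop1 and Hadha, which follow Ucp1 closely, held none of these 5 motifs. Acaa2, Cpt1b, Ebf2, Elovl3, Kcnk3 and Ppargc1b had no entry.

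Other genes of the same pathways were counted from separate lists. Of 23 further genes of brown fat tested, 0 passed 10% FDR over 12 mice, where the median log2 fold change was 0.03 with 14 positive and 9 negative, and 2 fell without A5, where the median was −0.25 and 18 were negative. These were S100b, a calcium binding protein made by glia and by brown adipocytes (−1.10, adjusted p = 0.0487), and Cpn2, a subunit of carboxypeptidase N (−0.77, adjusted p = 0.0846). The study, which used DESeq2 at 10% FDR on all 12 mice, listed S100b as lower and did not list Cpn2. Cpn2 stood at 15.7 to 20.3 CPM in controls, at 7.88 to 13.7 CPM in AZ6983 mice other than A5 and at 28.0 CPM in A5. Of 23 further genes of fatty acid oxidation, 0 passed in either fit, with a median of −0.04 over 12 mice and −0.22 without A5. Of 17 nuclear genes of the respiratory chain, 0 passed in either fit, with medians of −0.06 and −0.28, and without A5 all 17 were negative. Of 5 further genes of the creatine cycle, 0 passed, with medians of −0.0057 and −0.0032.

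Markers of the other cells of the sample varied between mice as well, and their part in the results above was not tested. The 8 adipocyte genes had a mean log2 CPM of 8.47 to 9.21 in controls and 8.67 to 9.65 in AZ6983 mice, lowest in C6 and highest in A5, with 0 of 8 called. The 8 markers of brown adipocytes, 4 of which are members, lay between 5.85 and 6.42 in controls and between 5.66 and 6.67 in AZ6983 mice, and of 7 tested Ucp1 was the 1 called without A5. The 7 white adipocyte genes tested lay between 1.39 and 2.56 in controls and between 1.48 and 2.0007 in AZ6983 mice, with 0 called. Skeletal muscle markers (11 tested) lay between −1.01 and 5.33 in controls and between 0.38 and 5.18 in AZ6983 mice, where A5 was at 5.05. Heart muscle markers (9 tested) lay between 0.53 and 4.56 in controls and between 0.47 and 4.02 in AZ6983 mice. Myh6, the heart myosin, reached 99.9 CPM in C2, 65.7 in A2, 53.9 in A6 and 21.0 in A5, and Acta1, the skeletal actin, reached 124, 77.2, 131 and 104 CPM in these mice.

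Smooth muscle markers (6 tested) lay between 10.16 and 10.62 in controls and between 9.88 and 10.61 in AZ6983 mice, with A5 the lowest mouse, and Myh11 stood at 4551 CPM in A5 against 5463 to 7014 CPM in the other 11. Endothelial markers (4 tested) lay between 7.25 and 7.47 in controls and between 7.39 and 7.65 in AZ6983 mice. Thymocyte genes (3 tested) lay between −2.59 and 2.18 in controls and reached 7.49 in A4. With the 4 mice left out in which Myh6 and Acta1 both exceeded 4 log2 CPM (C2, A2, A5 and A6), a choice made after seeing the data, the log2 fold change of Ucp1 was −0.86 (adjusted p = 0.365), and 0 members passed. The ratio of Ucp1 to Adipoq then differed by −1.09 on the log2 scale (exact permutation p = 0.0179, the smallest possible with the mice left).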

How the data were processed

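The authors sequenced stranded total RNA, depleted of ribosomal RNA, of 12 aortas and deposited raw counts of reads per gene symbol in 1 table, without normalization. The submitters' notes name CASAVA 1.8.2, STAR 2.5.2b, HTSeq 0.6.1p1 and mm10, and the strand setting and annotation are not given in the sources used here. Rows for reads on no gene (8.02% to 14.9% of a mouse's reads), at several places (18.1% to 23.2%) or in several genes (0.606% to 0.698%) were left out. Columns were matched to mice by number, that of A1 by 3 of its 4 digits. The labels give no batch, litter or pairing.

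AZ6983 and control counts were compared by the quasi-likelihood test of edgeR 4.0.16 under R 4.3.3 with TMM scaling and filterByExpr, at 10% FDR over all genes. Alternatives were DESeq2 1.42.0, limma-voom (limma 3.58.1), RLE and upper quartile scaling, other filters, 5% FDR, the fraction of reads outside genes as a covariate, and each mouse left out. Log2 CPM used a prior count of 2. Single values were tested by exact permutation over mice, and correlations by permutation, in Python 3.11.15. Exon lengths are GENCODE M21 unions. The steps were tested on simulated data. Members and gene lists were chosen with earlier results of these data known. Genes described singly were Ucp1, those with the smallest p in either fit, the highest level per length of each role, the calls, and the highest and lowest r with Ucp1. The other members were described after their values were seen.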

Additional observations from a re-analysis of the deposited data

Results flagged for a closer look

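Within each group of 6 mice, the gap between the outermost mouse and the next was set against the whole range (Dixon's test, critical value 0.625) for the 34 members tested and for the ratio of Ucp1 to Adipoq. Chance alone marks about 1 in 20 groups, or 3.5 of the 70 tested, and 23 were marked. All 23 were A5 or C6, and since most members follow Ucp1 from mouse to mouse these are not separate findings. In log2 CPM, A5 was high among AZ6983 mice for 10 members: Ucp1 (11.86), Cox7a1 (7.985), Otop1 (7.545), Letmd1 (8.643), Kcnk3 (7.257), Ppargc1b (5.427), Esrrg (4.476), Cpt2 (8.301), Hadha (10.67) and Pank1 (7.888). C6 was low among controls for 12 members: Cox7a1 (6.955), Cox8b (7.825), Otop1 (6.479), Kcnk3 (5.251), Slc27a2 (4.178), Slc25a20 (7.517), Acadvl (9.612), Acadl (8.9), Acadm (9.25), Acads (6.987), Etfdh (8.318) and Pank1 (6.221). C6 was high among controls for Prdm16 (6.433, the other controls 5.41 to 5.67). The gaps that took the greatest part of their group's range were those of Acadm in C6 (the other controls 9.95 to 10.02) and Letmd1 in A5 (the other AZ6983 mice 7.18 to 7.46). The log2 ratio of Ucp1 to Adipoq was not marked in either group.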

How the results depend on the processing

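Over 12 mice, the count of 0 members called held under every alternative but leaving out A5 (0 to 3 with 1 mouse left out). The log2 fold change of Ucp1 ran from −0.83 to −0.39 with 1 mouse left out and was past the threshold only without A5, and the median over members ran from −0.42 to −0.12, against −0.17 with all mice. Limma-voom with sample weights moved Ucp1 to −0.77 and the median to −0.31, the fraction of reads outside genes as a covariate moved the median to −0.11, and leaving out C2, A2, A5 and A6 moved it to −0.48. Without A5, the count of 3 became 1 with no filter (13 genes called in all), 16 with DESeq2 on every gene and 16 on filtered genes (with 388 and 374 genes called in all, against 27), 10 with limma-voom with sample weights (139 genes), 0 with that covariate and 0 at 5% FDR, and 0 to 19 with a further mouse left out. Ucp1 without A5 lost its call with no filter (−0.82, adjusted p = 0.106) and with the fraction of reads outside genes (−0.93, adjusted p = 0.629). It also lost its call with any of C1 to C5, A2, A3, A4 or A6 left out as well (adjusted p from 0.114 to 0.214). The call held with C6 (adjusted p = 0.0114) or A1 (adjusted p = 0.0714) left out. With a further mouse left out the log2 fold change ran from −0.92 to −0.77. The difference in mean Ucp1 level passed 0.05 when scaled to the total only (−0.60, exact permutation p = 0.0281). It also did so without C6 (−0.68, exact permutation p = 0.0325) and without A5 (−0.80, exact permutation p = 0.00433), and ran from −0.80 to −0.48 with 1 mouse left out. The ratio to Adipoq ran from −1.06 to −0.81 with 1 mouse left out, with p under 0.05 each time, and missed 0.05 with Myh11 as reference (−0.56). Members whose groups did not overlap ran from 0 to 5 with 1 mouse left out. Members that went with Ucp1 fell from 20 to 9 by Spearman, 2 without A5, and 10 without the 2 farthest mice. Within control and within AZ6983 mice the counts were 0 and 0, where 6 mice allow no p below 0.00139 before adjustment over all genes, so these counts say nothing on stability. The cause of the other changes was not tested. Single genes changed sign. Ckmt1, at −1.04 in the main fit (−1.02 without A5), turned to 0.020 (0.042 without A5) with limma-voom with sample weights. Ckb, at −0.23 (−0.18 without A5), turned to 0.13 (0.22 without A5) with the fraction of reads outside genes as a covariate. Ppargc1a, at 0.45 (0.08 without A5), turned with that fraction (−0.10, and −0.68 without A5) and without C2, A2, A5 and A6 (−0.20). With A5 out, Ppargc1a also turned with sample weights (−0.064). Without A5 that fraction also turned Ebf2 (−0.058) and Prdm16 (−0.048). With 1 mouse left out Acaa2 ran from −0.25 to 0.039 (0.013 without A4), and Ppargc1a without A5 from −0.12 to 0.29. No paired analysis was possible because the labels give no replicate numbers shared between groups. The count per gene limits Bmp8b, Ckmt1, Cpt1b and Zic1.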
